A study of Arabidopsis thaliana with 10 samples.

Results

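The comparison set dark-grown Arabidopsis thaliana seedlings of the DIG2 line against seedlings of the GFP line, both after 4 h of dexamethasone, across all 17371 genes of the deposited table. It rests on 4 of the 10 RNA-seq libraries of the series, chosen by their labels alone: 2 libraries from the DIG2 line and 2 from the GFP line. Both lines were in the Col-0 accession, and whole seedlings aged 3 d, germinated and kept in the dark, were given 10 µM dexamethasone, a synthetic glucocorticoid, for the last 4 h without light. The series also holds 2 DIG1 libraries from the same treatment, which enter here only through the estimate of the spread and a direct contrast with DIG2, and 4 libraries from light-grown seedlings that are not used here. The labels name neither the construct, nor the number of independent lines, nor seedlings without dexamethasone, so a difference that the lines had before treatment cannot be told apart from one that arose within the 4 h. Nothing in the labels says that replicates were separate cultures, and p-values then measure only the spread between these libraries, which may be technical.

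DIG2 (AT5G50360) belongs to a small family of plant regulators tied to abscisic acid (ABA), the hormone of drought response and seed dormancy. A seedling in the dark lives on its reserves: it elongates, holds its plastids as etioplasts stocked with protochlorophyllide, and when sugar runs short it turns on genes that break down amino acids, proline and glycosides. Proteins bound for the cell wall and the vacuole are folded in the endoplasmic reticulum by chaperones such as BiP, calnexin and calreticulin, whose genes are controlled by the membrane-held factors bZIP28 and bZIP60.

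The transcript of DIG2 itself stood at 4879 and 2685 RPKM (reads per kilobase of gene, scaled to library size) in the DIG2 libraries, against 0.876 and 0.768 RPKM in the GFP libraries. The groups did not overlap, and DIG2 replicate 1 held 1.82 times as much as DIG2 replicate 2. Its relative AT3G48510 stood at 1.90 and 1.54 RPKM in DIG2 and at 0.551 and 1.43 RPKM in GFP, and AT5G63350 at 4.68 and 7.04 RPKM in DIG2 and at 6.55 and 8.13 RPKM in GFP. Neither relative was called. AT3G48510 stood at 1716 and 1438 RPKM in the libraries labelled DIG1, although their titles pair DIG1 with AT3G45810. Whole reads recovered from the RPKM steps came to 15793912 and 13116413 in the DIG2 libraries and 13635544 and 12709948 in the GFP libraries. Replicates correlated across genes at r = 0.990 in DIG2 and 0.992 in GFP. Of the cell type marker lists, those of root hair, root endodermis, root cap, stomatal lineage, phloem and shoot meristem had no called member, and 0 of 5 seed storage markers were measured. KAT1 and HT1 (a call lost without any single DIG2 or GFP library) fell among 5 measured guard cell markers, whose summed level was 271 and 285 RPKM in DIG2 and 261 and 300 RPKM in GFP. The median log2 change of the 5 was -0.36. In 3 of them both DIG2 libraries lay below both GFP libraries (beside 30.9% of all genes), and in 0 above (beside 29.3%). Of 2 measured trichome markers ETC1 fell by 1.31 on the log2 scale, a call lost without GFP replicate 2, and GL2 was not called (0.01). Their summed level was 6.59 and 5.74 RPKM in DIG2 and 9.59 and 10.1 RPKM in GFP, and its part in other results was not tested. In whole seedlings, fewer cells of a type and less RNA per cell cannot be told apart.

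Genes were called by limma on log2(RPKM + 0.5), with a Benjamini-Hochberg adjusted p under 0.05 over all genes. In DIG2, 1281 genes rose (7.37% of all tested) and 1300 fell (7.48%). The changes were mostly small, with a median size of 0.59 on the log2 scale among called genes. At least 2-fold, 107 rose (0.616%, DIG2 itself among them) and 273 fell (1.57%). Fewer passed when a GFP or DIG2 library was left out: 484 genes rose and 550 fell with GFP replicate 1 omitted, 406 rose and 509 fell with GFP replicate 2 omitted, 412 rose and 573 fell with DIG2 replicate 1 omitted, and 926 rose and 1086 fell with DIG2 replicate 2 omitted. In the authors' deposited table, 1629 genes were higher and 1634 lower in DIG2 at an FDR under 0.05. Of the genes called here, 1254 that rose and 1267 that fell also passed that FDR in the same direction in the authors' deposited table, and none had the opposite sign there. Of the genes called at least 2-fold without DIG2 itself, 87 of 106 that rose and 211 of 273 that fell lay farther from GFP in DIG2 replicate 1 than in replicate 2. Over all called genes these shares were 70.1% of rises and 66.2% of falls, and this sets 1 library beside 1 library. At 2-fold or more the median log2 change was 1.32 in replicate 1 and 1.10 in replicate 2 for the rises, and -1.44 and -1.22 for the falls.

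The largest changes took in nitrate transport, drought response, carotenoid synthesis and the dark-seedling chlorophyll pathway. NRT2.6, of the high-affinity nitrate transporter family, stood at 10.5 and 7.70 RPKM in DIG2, against 0.593 and 0.265 RPKM in GFP (log2 change 3.37 ± 0.24 SE, limma adjusted p = 6.03e-05). The DIG2 libraries held 298 and 178 recovered reads of it and the GFP libraries 15 and 6, so the GFP level rests on few reads. RD20, a calcium-binding lipid-body protein induced by drought, stood at 0.402 and 0.578 RPKM in DIG2, against 7.62 and 13.1 RPKM in GFP (-3.41 ± 0.26, limma adjusted p = 8.59e-05). With 0.5 RPKM added before taking logs, the fold change of genes as low as these is understated.

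The other large rises were in LTI65 (RD29B), a drought and ABA marker, NRT1.8, a transporter that takes nitrate back out of the xylem, DIN2, a dark-inducible beta-glucosidase, and HIS1-3, a linker histone of drought. They also took in COR27, a cold-regulated partner of the clock and of light signalling, HOL2, GH3.1, which joins auxin to amino acids, BETA-TIP, a vacuolar aquaporin, CBSX5, PGAZAT, an abscission polygalacturonase, and the transporter gene ABCG43. Their log2 changes ran from 1.54 in ABCG43 to 2.36 in LTI65. LTI65 stood at 14.5 and 13.8 RPKM in DIG2, against 2.85 and 1.93 RPKM in GFP. LTI65 was no longer called when GFP replicate 2 or DIG2 replicate 1 was left out, nor HIS1-3 without GFP replicate 1 or DIG2 replicate 1. The other large falls were in KIN2 (COR6.6), ELIP2, LUT2, BBX14, BBX23, CYP79B2, the cell wall glucanase gene GH9B1, PORA, the bHLH factor gene HEC1, OMT1 and the lipase-like gene TLL1, with log2 changes from -3.37 in KIN2 to -2.19 in TLL1. The rule for naming these 24 genes asks that their DIG2 and GFP values not overlap. KIN2 held 10 and 7 recovered reads in the DIG2 libraries, against 99 and 123 in the GFP libraries. KIN2 has a near-identical neighbour, KIN1, between which counting could split reads.

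**Figure D1:**
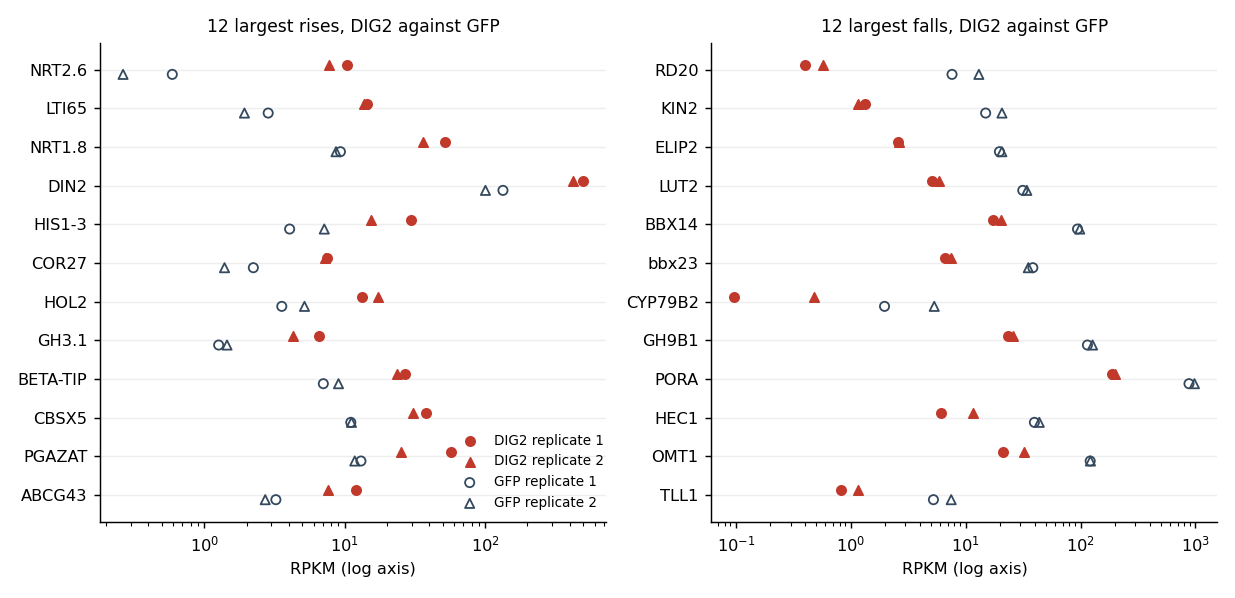
RPKM (log axis) of the 12 genes with the largest rises (left) and the 12 with the largest falls (right), with 1 point for each DIG2 library (filled) and each GFP library (open). In each gene the DIG2 points lie on 1 side of the GFP points; NRT2.6, at 10.5 and 7.70 RPKM in DIG2 against 0.593 and 0.265 RPKM in GFP, is farthest apart on the left and RD20 on the right.

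Genes were also grouped into 49 lists by pathway or family. The lists of endoplasmic reticulum folding, B-box factors, glucosinolate synthesis, antenna, carotenoid, Calvin cycle and chlorophyll genes had the largest shares of members that fell beyond those that rose. Dark and sugar starvation genes, Aux/IAA and GH3 genes, sugar transporters and SAUR genes had the largest shares that rose beyond those that fell. Each list count below is to be read beside the 7.37% of all genes that rose and the 7.48% that fell. The median log2 change of all genes was -0.008.

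**Figure D2:**
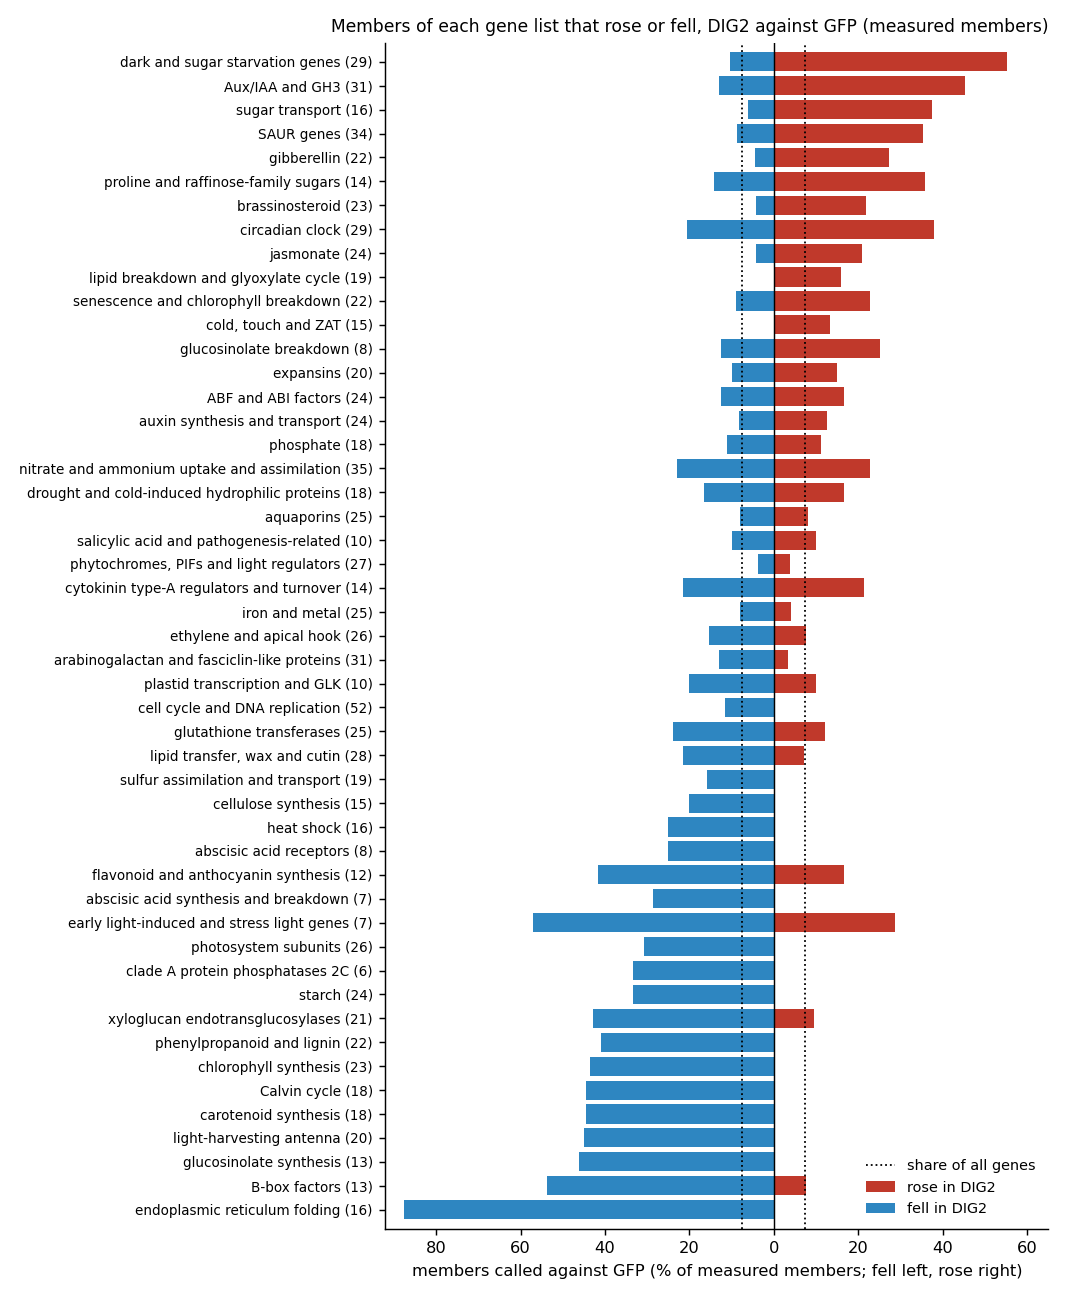
Share of the measured members of each of the 49 gene lists that rose in DIG2 (right of 0) or fell in DIG2 (left of 0), in percent, with the number measured in brackets and the share of all genes as dotted lines (7.37% higher and 7.48% lower). Endoplasmic reticulum folding, with 14 of 16 members lower, is at the bottom and dark and sugar starvation, with 16 of 29 higher, at the top.

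Endoplasmic reticulum folding genes fell nearly throughout. Of 16 measured members 14 fell and 0 rose, with a median log2 change of -0.71. BIP2, an HSP70 chaperone of the endoplasmic reticulum, stood at 18.0 and 30.4 RPKM in DIG2, against 77.8 and 84.7 RPKM in GFP (log2 change -1.77 ± 0.20, limma adjusted p = 0.000608). CNX1, the lectin chaperone calnexin, stood at 33.0 and 54.9 RPKM in DIG2, against 119 and 139 RPKM in GFP (-1.58 ± 0.20, limma adjusted p = 0.00113). BIP1 stood at 27.0 and 44.8 RPKM in DIG2, against 91.5 and 95.9 RPKM in GFP (-1.42 ± 0.19, limma adjusted p = 0.00133). In all 3 genes the DIG2 libraries lay below the GFP libraries, which also holds for 30.9% of all genes. DIG2 replicate 1 was the lower of the DIG2 libraries in each.

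The calreticulin gene CRT1b fell by 0.94 on the log2 scale, and the protein disulfide isomerase genes PDIL2-2, PDIL1-2 and PDIL1-1 by 0.93, 0.90 and 0.89. The co-chaperone genes ATERDJ3A and ATERDJ3B, SDF2, CRT1a, SHD (the reticulum's HSP90), UNE5 and the factor gene BZIP60 fell by 0.39 to 0.72. The 2 members that were not called were BZIP28, at 26.1 and 26.9 RPKM in DIG2 and 23.9 and 21.1 RPKM in GFP, and the plant-specific calreticulin CRT3. BIP1 and BIP2 are close copies of each other, so reads could be split between them, and both fell. The 14 falls became 7 without GFP replicate 1, 6 without GFP replicate 2, 8 without DIG2 replicate 1 and 9 without the variance trend. The calls of BIP2, CNX1, BIP1, CRT1b, PDIL1-1 and PDIL1-2 held in every fit tried.

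**Figure D3:**
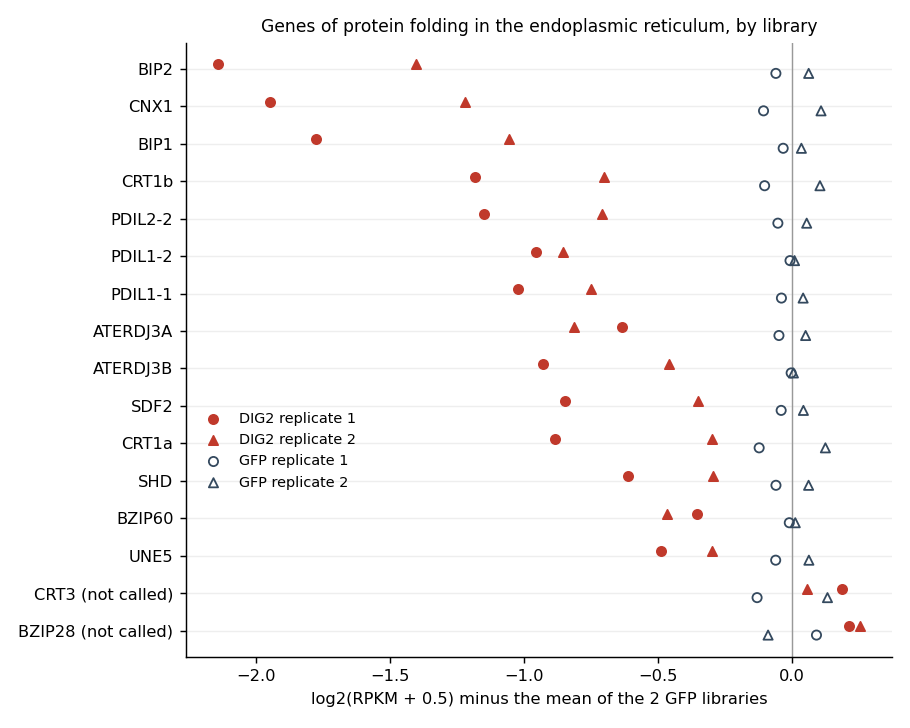
log2(RPKM + 0.5) of the 16 measured endoplasmic reticulum folding genes in each library, set relative to the mean of the GFP libraries, with DIG2 filled and GFP open and the replicates by shape. For the 14 called genes both DIG2 points lie left of both GFP points, from BIP2 (log2 change -1.77) down to UNE5 (-0.39), and DIG2 replicate 1 lies farther left in all of them but ATERDJ3A and BZIP60.

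Many folding genes are known for the endoplasmic reticulum stress element, CCAATNNNNNNNNNNCACG, through which bZIP28 acts together with a CCAAT-binding complex. This motif was chosen after the values of the folding genes were seen, so what follows is a description with no test. It was searched on both strands in the 250 bases upstream of each gene start, read from the RefSeq TAIR10.1 genome, for 17304 genes. It was found upstream of 155 genes, 0.9% of all, and of 4 of the 16 folding genes, with BIP2, CNX1 and BIP1 not among them. Some of the 155 have consecutive locus numbers, such as AT4G18520, which fell, and AT4G18530, which was not called. Such genes could share an element, so these may not be 155 separate elements. Of those 155 genes 62 fell (beside 7.5% of all genes with a promoter) and 3 rose (1.9%, beside 7.4%), and their median log2 change was -0.35. Among 1292 genes that fell 4.8% carried it, and among 1279 genes that rose, DIG2 itself left out, 0.2%. Leaving out the folding list, 58 of 151 genes with the element fell (38.4%).

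The share that fell was lower at other spacings of its CCAAT and CACG, but those sets are small and the difference was not tested. With 9 bases in place of 10 between CCAAT and CACG, 3 of 27 genes fell, and with 11 bases 3 of 21 fell. Of all genes with CCAAT anywhere in the window 8.3% fell, and of those with CACG 8.7%. CACG is also part of the G-box searched below, so the motifs overlap. Fewer element genes were called lower when a GFP library or DIG2 replicate 1 was left out, as was also true over all genes. Without the variance trend 42 were called lower, beside 62 in the main fit, where over all genes the counts were 933 and 1300.

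Shown here, as examples of the element in its surroundings, are the 4 elements upstream of folding genes and the elements of the 5 other named genes that fell most; the fixed letters are in capitals and read CGTG and ATTGG where the element lies on the opposite strand. All are TAIR10.1, written 5′ to 3′ on the strand of the gene.
PDIL1-1, chr1:7645402-7645462, + strand: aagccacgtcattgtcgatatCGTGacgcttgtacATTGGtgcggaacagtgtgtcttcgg
CRT1a, chr1:21092738-21092798, - strand: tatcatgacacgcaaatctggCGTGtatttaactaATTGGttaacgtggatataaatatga
PDIL1-2, chr1:29126563-29126623, + strand: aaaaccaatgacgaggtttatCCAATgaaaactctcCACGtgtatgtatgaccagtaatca
SHD, chr4:12556059-12556101, - strand: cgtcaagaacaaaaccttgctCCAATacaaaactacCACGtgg
PHS1, chr3:11252692-11252752, + strand: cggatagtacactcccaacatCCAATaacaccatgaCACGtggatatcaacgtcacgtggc
ABF3, chr4:16295210-16295270, + strand: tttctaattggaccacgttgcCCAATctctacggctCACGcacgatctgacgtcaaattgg
GFAT, chr3:8701127-8701187, - strand: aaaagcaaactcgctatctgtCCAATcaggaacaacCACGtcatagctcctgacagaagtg
UGP1, chr3:754191-754251, - strand: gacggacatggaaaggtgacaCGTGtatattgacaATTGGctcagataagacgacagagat
ERD9, chr1:3398423-3398483, - strand: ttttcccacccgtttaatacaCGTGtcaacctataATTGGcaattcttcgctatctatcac

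These 5 other genes have different jobs. PHS1, the plastid starch phosphorylase, fell by 1.82 on the log2 scale. ABF3, a bZIP factor of ABA response, stood at 20.7 and 19.2 RPKM in DIG2, against 63.3 and 64.2 RPKM in GFP (log2 change -1.65 ± 0.09, limma adjusted p = 1.07e-05). GFAT, which makes the amino sugar used for N-glycans, stood at 0.380 and 0.819 RPKM in DIG2, against 2.57 and 3.06 RPKM in GFP (-1.62 ± 0.23, limma adjusted p = 0.00221). UGP1, a UDP-glucose pyrophosphorylase, stood at 22.2 and 34.4 RPKM in DIG2, against 73.3 and 85.7 RPKM in GFP, and ERD9, a glutathione transferase, fell by 1.47. The DIG2 and GFP libraries did not overlap in any of the 5, which also holds for 30.9% of all genes in this direction.

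**Figure D4:**
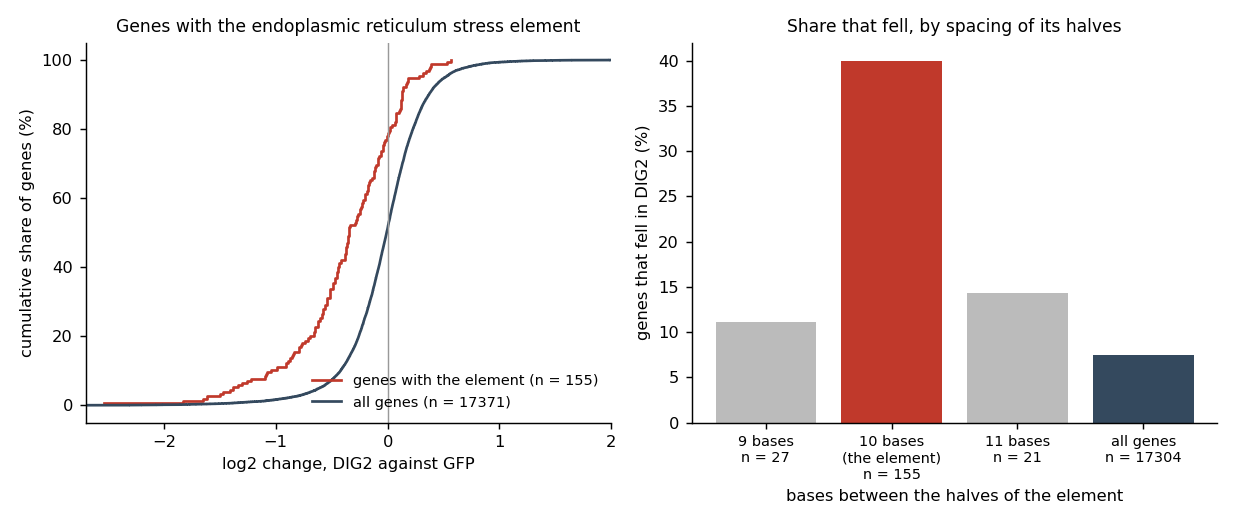
Left, the cumulative share of genes (%) by log2 change, DIG2 against GFP, for the 155 genes with the endoplasmic reticulum stress element and for all 17371 genes. Right, the share of genes that fell (%) by the number of bases between its CCAAT and CACG: 11.1% (3 of 27) at 9 bases, 62 of 155 genes at the 10 bases of the element, 14.3% (3 of 21) at 11 bases and 7.5% of all genes.

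The same element genes can be set beside the DIG1 line, whose comparison uses the same GFP libraries. Against GFP, 31 of the 155 genes fell in DIG1 and 0 rose, with a median log2 change of -0.20, where 5.54% of all genes fell and 3.01% rose. In the direct contrast of DIG2 with DIG1, 3 of the 155 were lower and 1 higher in DIG2, beside 0.622% and 1.74% of all genes. Of the 16 folding genes 7 fell in DIG1 against GFP and none was called between DIG2 and DIG1. By sign 14 were lower in DIG2 than in DIG1, with a median log2 difference of -0.22, beside 0.0 for all genes. BIP2 stood at 18.0 and 30.4 RPKM in DIG2, against 41.5 and 32.6 RPKM in DIG1 (log2 difference -0.64 ± 0.20, limma adjusted p = 0.139).

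Dark and sugar starvation genes were more often called higher than lower. Of 29 measured members 16 rose, 3 fell and 10 were not called, with a median log2 change of 0.48. DIN2, the dark-inducible beta-glucosidase, stood at 498 and 422 RPKM in DIG2, against 134 and 100.4 RPKM in GFP (log2 change 1.98 ± 0.15, limma adjusted p = 8.60e-05). BCAT-2, the aminotransferase that opens the breakdown of branched-chain amino acids, stood at 279 and 211 RPKM in DIG2, against 105 and 84.1 RPKM in GFP (1.36 ± 0.15, limma adjusted p = 0.000493). ERD5 (PRODH1), the proline dehydrogenase of mitochondria, stood at 297 and 304 RPKM in DIG2, against 161 and 159 RPKM in GFP (0.90 ± 0.11, limma adjusted p = 0.000692). In each of the 3 both DIG2 libraries lay above both GFP libraries, which also holds for 29.3% of all genes.

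TAT7, a tyrosine aminotransferase gene, rose by 1.15 on the log2 scale. Further down the branched-chain pathway, DIN4 and BCE2, subunits of the keto acid dehydrogenase, rose by 0.79 and 0.75, and GDH1, a glutamate dehydrogenase, by 0.73. ASN1 (DIN6), the asparagine synthetase that dark and low sugar induce, stood at 563 and 551 RPKM in DIG2 and 348 and 382 RPKM in GFP, and its call was lost without any single DIG2 or GFP library. EXL2, TPS5 and EXO fell by 0.67, 0.66 and 0.52. Outside the list, the rises of at least 2-fold with the highest levels were, besides DIN2 and DIG2 itself, MGL, a methionine gamma-lyase, at 574 and 548 RPKM in DIG2 and 233 and 238 RPKM in GFP, and AGT3, an alanine:glyoxylate aminotransferase, at 425 and 421 RPKM in DIG2 and 145 and 163 RPKM in GFP. The 16 rises became 9 without GFP replicate 2 and 10 without DIG2 replicate 1.

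Of the other motifs searched in the 250 bases upstream, the I-box core GATAAG was found in 20.1% of genes that rose, 155 of the 1292 that fell and 12.6% of all. In the starvation list 37.9% of the 29 promoters held it. In the list, 3 of the genes that rose are shown with the core, or CTTATC on the opposite strand, in capitals.
BCAT-2, chr1:3287972-3288007, + strand: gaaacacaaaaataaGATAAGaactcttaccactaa
BCE2, chr3:2160688-2160723, - strand: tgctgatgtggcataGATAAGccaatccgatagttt
GDH1, chr5:6005840-6005875, + strand: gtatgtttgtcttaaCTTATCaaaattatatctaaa

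The sugar element TATCCA was found in 19.5% of genes that rose, 16.8% of those that fell and 14.3% of all. The G-box CACGTG was found in 9.4% of genes that rose, 13.0% of those that fell and 7.3% of all. The ABA element cores ACGTGGC and ACGTGTC, which overlap the G-box, were found in 5.8% and 5.5% of genes that rose, 7.8% and 8.0% of those that fell, and 3.9% and 4.2% of all. The evening element AAAATATCT was at 2.4%, 1.7% and 2.4% in the same sets. No test was made of these shares.

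Sugar transporters were called higher more often than lower, and a minority of starch genes were called lower. Of 16 measured sugar transporters 6 rose and 1 fell, with a median log2 change of 0.29. STP4, a hexose carrier of the plasma membrane, stood at 97.6 and 92.0 RPKM in DIG2, against 65.3 and 66.3 RPKM in GFP (log2 change 0.52 ± 0.09, limma adjusted p = 0.00501). STP1, the main hexose carrier of seedlings, stood at 1946 and 2041 RPKM in DIG2, against 1039 and 1151 RPKM in GFP, and its limma adjusted p of 0.0449 passed the threshold narrowly. The call of STP1 was lost without any single DIG2 or GFP library, and that of MSS1 (STP13), which fell by 0.60, without GFP replicate 1 or DIG2 replicate 2. The 6 rises became 3 without GFP replicate 1, 2 without DIG2 replicate 2, and 1 without GFP replicate 2 or DIG2 replicate 1.

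Of 24 measured starch genes 8 fell and 0 rose, with a median log2 change of -0.23. SEX1, the glucan water dikinase that primes starch for breakdown, stood at 7.44 and 7.99 RPKM in DIG2, against 21.8 and 24.95 RPKM in GFP (-1.54 ± 0.12, limma adjusted p = 8.60e-05). PHS1 stood at 8.81 and 12 RPKM in DIG2, against 34.5 and 41.3 RPKM in GFP (-1.82 ± 0.15, limma adjusted p = 0.000109). The synthesis enzyme SS1 and the amylase AMY3 fell by 0.56 and 0.59. The call of SS1 was lost without GFP replicate 2, and that of AMY3 without GFP replicate 2 or either DIG2 library. The 8 falls became 2 without GFP replicate 2, 3 without DIG2 replicate 1 and 5 without DIG2 replicate 2.

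Genes of nitrate and ammonium use moved both ways. Of 35 measured members 8 rose, namely the carrier genes NRT2.6, NRT1.8, NRT1.7, AMT1;1 and AMT2, their partner WR3, ASN1 and the factor gene LBD39. The 8 that fell were the reductase genes NIA1, NIA2 and NIR1, the carrier gene NRT1.5, ASN2, UPM1, LBD37 and LBD38. Beside NRT2.6, NRT1.8 stood at 51.5 and 36.3 RPKM in DIG2, against 9.32 and 8.67 RPKM in GFP (log2 change 2.21 ± 0.20, limma adjusted p = 0.000232). WR3 (NAR2.1), the partner protein of the NRT2 carriers, stood at 57.4 and 65.1 RPKM in DIG2, against 33.4 and 34.3 RPKM in GFP (0.84 ± 0.09, limma adjusted p = 0.000522). NRT1.7, which loads nitrate into phloem, rose by 0.95, a call lost without GFP replicate 1 or DIG2 replicate 1.

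The nitrate reductase genes NIA2 and NIA1 had log2 changes of -0.97 and -0.84, and the nitrite reductase gene NIR1 one of -0.93. NIA2 stood at 97.7 and 111 RPKM in DIG2, against 175 and 238 RPKM in GFP, and NIR1 at 45.8 and 51.3 RPKM in DIG2, against 88.9 and 96.6 RPKM in GFP. ASN2, a second asparagine synthetase gene, fell by 0.74 while ASN1 rose. NRT1.1, the dual-affinity carrier and nitrate sensor, was not called, at 64.7 and 90.0 RPKM in DIG2 and 69.8 and 68.9 RPKM in GFP. The calls of NRT2.6, NRT1.8, WR3, NIA1, NIA2, NIR1 and ASN2 held without any single library. Over the list, 5 rose without either GFP library, and 5 fell without GFP replicate 2 or DIG2 replicate 1.

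**Figure D5:**
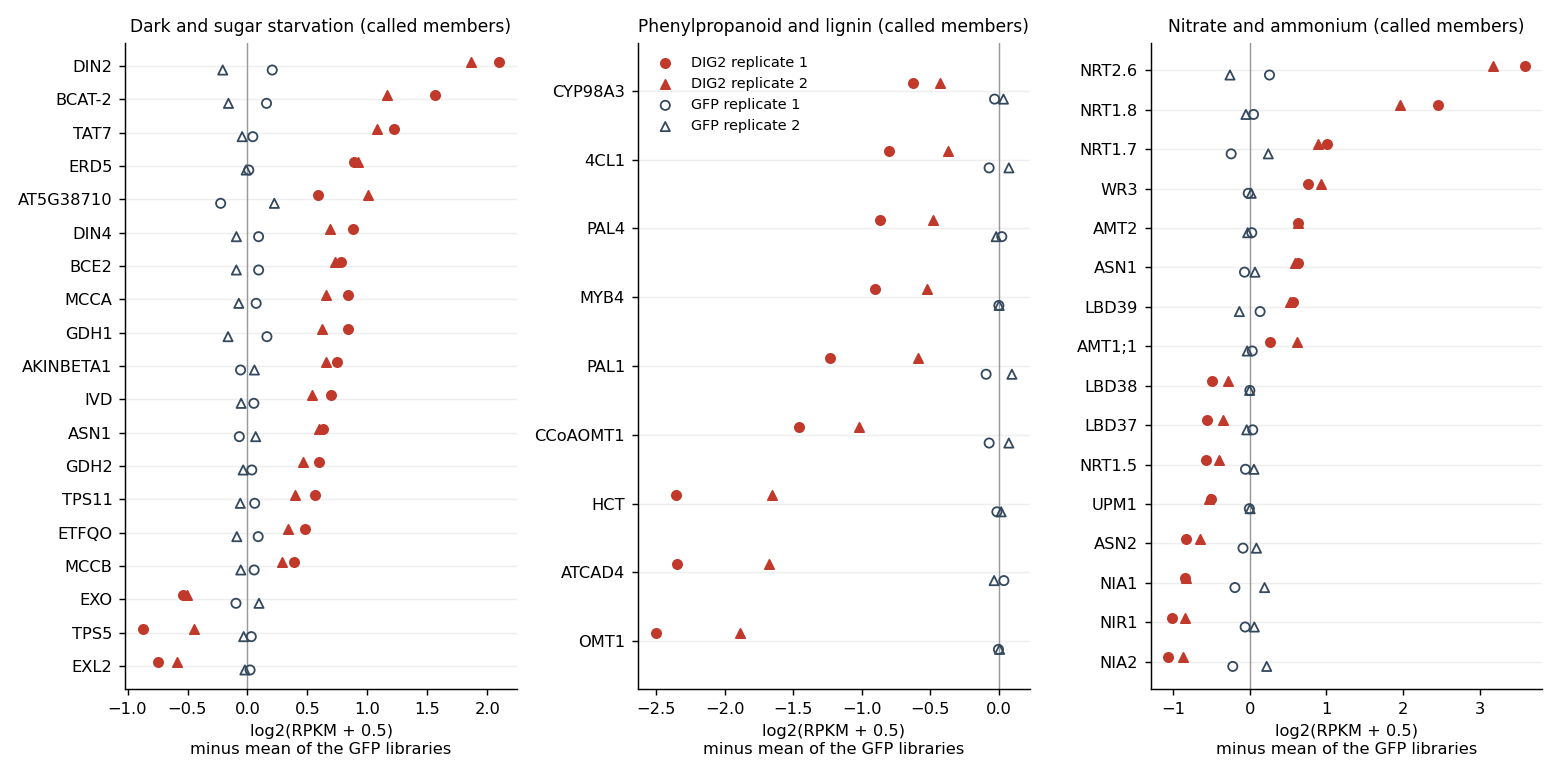
log2(RPKM + 0.5) of the called members of 3 gene lists in each library, relative to the mean of the GFP libraries, with DIG2 filled and GFP open. Starvation genes lie mostly right of 0, lignin genes left of 0, and nitrate genes on both sides, with NRT2.6 and NRT1.8 at the top and NIA1, NIR1 and NIA2 at the bottom.

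In the lignin and glucosinolate lists the called members, which were not most of them, were lower in DIG2. Of 22 measured phenylpropanoid and lignin genes 9 fell and 0 rose, with a median log2 change of -0.52. OMT1, the caffeate O-methyltransferase, stood at 21.1 and 32.5 RPKM in DIG2, against 121 and 122 RPKM in GFP (log2 change -2.20 ± 0.17, limma adjusted p = 8.60e-05). ATCAD4, a cinnamyl alcohol dehydrogenase, stood at 7.19 and 11.7 RPKM in DIG2, against 39.5 and 37.6 RPKM in GFP (-2.01 ± 0.18, limma adjusted p = 0.000224). HCT, the shikimate transferase at the entry to lignin, stood at 14.3 and 23.6 RPKM in DIG2, against 74.7 and 76.3 RPKM in GFP (-2.01 ± 0.19, limma adjusted p = 0.000251). All 3 were lowest in DIG2 replicate 1.

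CCoAOMT1 fell by 1.24 and PAL1, the first enzyme of the pathway, by 0.91, a call lost without GFP replicate 2. The cinnamoyl-CoA reductase gene CCR1 and the ferulate hydroxylase gene FAH1 were not called, with log2 changes of 0.01 and 0.08. The 9 falls became 6 without GFP replicate 1, 4 without GFP replicate 2 and 5 without DIG2 replicate 1. Of 4 xylem vessel markers 2 were measured, with summed levels of 69.7 and 89.9 RPKM in DIG2 and 97.9 and 115 RPKM in GFP. XCP2 fell by 0.39, a call lost without either GFP library or DIG2 replicate 1, and XCP1 was not called (-0.45). Their part in the lignin result was not tested.

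Of 13 measured glucosinolate synthesis genes 6 fell and 0 rose, with a median log2 change of -0.63. CYP79B2 and CYP79B3, which turn tryptophan into the aldoxime of indole glucosinolates, fell by 2.31 and 1.33. CYP79B2 stood at 0.0973 and 0.479 RPKM in DIG2, against 1.97 and 5.34 RPKM in GFP. These levels rest on 3 and 12 recovered reads in DIG2 and on 54 and 131 in GFP. MYB34, a factor that turns the indole pathway on, stood at 7.07 and 8.42 RPKM in DIG2, against 20.5 and 23.5 RPKM in GFP (-1.45 ± 0.20, limma adjusted p = 0.00153). Its relatives MYB51 and MYB122 were not called. SOT18, a sulfotransferase of the last step, fell by 1.53. The 6 falls became 4 without GFP replicate 2 or DIG2 replicate 1.

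Cell wall genes were mixed, beside 7.37% of all genes that rose and 7.48% that fell. Of 21 measured xyloglucan endotransglucosylases, which cut and rejoin wall xyloglucan, 9 fell and 2 rose. XTH32 stood at 3.37 and 5.98 RPKM in DIG2, against 19.7 and 21.3 RPKM in GFP (-2.07 ± 0.21, limma adjusted p = 0.000353). XTH9 and XTH7 fell by 0.92 and 0.87. The 9 falls became 3 without GFP replicate 2 or DIG2 replicate 1, and 6 without GFP replicate 1. GH9B1 stood at 23.2 and 25.8 RPKM in DIG2, against 115 and 127 RPKM in GFP (-2.28 ± 0.11, limma adjusted p = 6.29e-06). Of 20 expansins 3 rose (1 without GFP replicate 1) and 2 fell (1 without any single library other than DIG2 replicate 2). Of 15 cellulose synthesis genes 3 fell, and 1 without GFP replicate 2 or either DIG2 library.

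In 5 lists of plastid genes some members fell and none was called higher. In chlorophyll synthesis 10 of 23 genes fell, in carotenoid synthesis 8 of 18, in the antenna 9 of 20, among photosystem subunits 8 of 26 and in the Calvin cycle 8 of 18. Beside 7.37% of all genes that rose and 7.48% that fell, plastid transcription and GLK genes had 1 of 10 higher and 2 lower. Early light-induced and stress light genes had 2 of 7 higher and 4 lower. The 4 falls became 2 without either GFP library or DIG2 replicate 2. In the transcription list 1 of 2 falls was left without a single GFP or DIG2 library, and the rise was lost without either GFP library or DIG2 replicate 1. GUN5, the magnesium chelatase subunit H, stood at 91.7 and 89.6 RPKM in DIG2, against 279 and 299 RPKM in GFP (-1.67 ± 0.11, limma adjusted p = 3.87e-05). HEMA1, the first committed enzyme of the tetrapyrrole path, stood at 52.4 and 52.5 RPKM in DIG2, against 126 and 128 RPKM in GFP (-1.27 ± 0.09, limma adjusted p = 6.03e-05). The falls of at least 2-fold with the highest levels were LHCB5, an inner antenna protein, PORB, a protochlorophyllide oxidoreductase, and PSBP-1, of the water-splitting complex.

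LHCB5 stood at 876 and 793 RPKM in DIG2, against 1772 and 1740 RPKM in GFP, and its call was lost without any single DIG2 or GFP library. PSBP-1 stood at 516 and 570 RPKM in DIG2, against 1067 and 1200 RPKM in GFP, and lost its call without GFP replicate 2 or DIG2 replicate 1. PORB lost its call without DIG2 replicate 1. In carotenoid synthesis the first enzyme, PSY, fell by 1.78, BETA-OHASE 2 by 2.06 and LUT2, which makes the epsilon ring of lutein, by 2.48. ABA1, the zeaxanthin epoxidase, and NCED4, a carotenoid cleavage dioxygenase, were not called, with log2 changes of 0.08 and -0.02. Photosystem falls became 2, 1, 1 and 4 without GFP replicate 1, GFP replicate 2, DIG2 replicate 1 and DIG2 replicate 2. Carotenoid falls stayed at 7 or more without any single library. Chlorophyll falls became 6 without either GFP library and 5 without DIG2 replicate 1, and Calvin cycle falls 4 without each of these 3.

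Auxin-responsive families rose more often than they fell. Of 31 measured Aux/IAA and GH3 genes 14 rose and 4 fell, with a median log2 change of 0.31, and of 34 SAUR genes 12 rose and 3 fell (median 0.45). GH3.1 stood at 6.54 and 4.28 RPKM in DIG2, against 1.27 and 1.45 RPKM in GFP (1.64 ± 0.21, limma adjusted p = 0.00123). GH3.3 rose by 1.15 and AT4G13790, a SAUR gene, by 1.14. The repressor gene IAA6 went the other way, at 2.56 and 6.89 RPKM in DIG2, against 21.4 and 17.6 RPKM in GFP (-2.06 ± 0.32, limma adjusted p = 0.00293), and IAA19 fell by 1.26. The 14 rises became 6 without GFP replicate 1, 5 without GFP replicate 2 and 5 without DIG2 replicate 1. SAUR rises became 4 without GFP replicate 2, 7 without DIG2 replicate 1 and 5 without DIG2 replicate 2. Members of the SAUR cluster on chromosome 5 are near-identical, so their reads could be split.

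Gibberellin and brassinosteroid lists also had more rises than falls. Of 22 gibberellin genes 6 rose and 1 fell, among them GA20OX2, of synthesis, by 1.01, and RGL3, a DELLA repressor, at 9.97 and 9.89 RPKM in DIG2, against 5.79 and 5.78 RPKM in GFP (0.73 ± 0.14, limma adjusted p = 0.00793). The call of GA20OX2 was lost without GFP replicate 2. Of 23 brassinosteroid genes 5 rose, PRE5 (0.91) and CPD (0.62) among them, and 1, BES1, fell by 0.60. Those of PRE5 and BES1 were lost without GFP replicate 2 or DIG2 replicate 1, and that of CPD without these or GFP replicate 1. The gibberellin rises became 1 without GFP replicate 2 and 3 without DIG2 replicate 1, and the brassinosteroid rises 2 without GFP replicate 1 and 1 without GFP replicate 2 or DIG2 replicate 1.

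ABA and drought genes showed no common direction, beside 7.37% of all genes that rose and 7.48% that fell. Of 24 measured ABF and ABI factor genes 4 rose (1 without GFP replicate 2 or DIG2 replicate 1) and 3 fell, and of 18 drought and cold-induced hydrophilic proteins 3 rose and 3 fell. Of 7 measured genes of ABA synthesis and breakdown 2 fell and 0 rose. NCED3, the main ABA-forming dioxygenase of drought, stood at 0.362 and 0.275 RPKM in DIG2, against 1.47 and 1.785 RPKM in GFP (-1.38 ± 0.22, limma adjusted p = 0.00383). Its DIG2 values lie under the 0.5 RPKM added before taking logs, and a filter for a mean of at least 1 RPKM removes it. The other fall was the exporter gene ABCG25 (-0.60), a call lost without either GFP library, without DIG2 replicate 1 or without the variance trend. None of 8 ABA receptors and none of 6 clade A phosphatases rose, and 2 of each fell. The receptor falls became 1 without GFP replicate 1 or DIG2 replicate 1, and the phosphatase falls 1 without GFP replicate 1 and 0 without GFP replicate 2, DIG2 replicate 1 or the variance trend. Within the hydrophilic proteins, LTI65, HIS1-3 and LTI78 (RD29A) rose by 2.36, 1.89 and 1.20, while RD20, KIN2 and the dehydrin gene ERD10 fell by 3.41, 3.37 and 1.31. LEA18 and LEA4-5 had log2 changes of 1.44 and 1.24 and were not called. Of 29 clock genes 11 rose and 6 fell. CCA1, a morning factor, stood at 2.50 and 2.61 RPKM in DIG2, against 8.91 and 8.53 RPKM in GFP (-1.59 ± 0.15, limma adjusted p = 0.000245), and the evening gene TOC1 at 42.1 and 38.6 RPKM in DIG2, against 24.7 and 23.6 RPKM in GFP (0.73 ± 0.09, limma adjusted p = 0.00109). Clock rises became 4, 3 and 3 without GFP replicate 1, GFP replicate 2 and DIG2 replicate 1, and 5 without the variance trend; the falls became 3 without either GFP library.

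The direct contrast asked where DIG2 differed from DIG1 under the same treatment. It called 302 genes higher in DIG2 (1.74%) and 108 lower (0.622%). The counts were 106 higher and 20 lower without DIG1 replicate 1, 88 and 35 without DIG1 replicate 2, 144 and 42 without DIG2 replicate 1, 163 and 87 without DIG2 replicate 2, and 111 and 38 without the variance trend. Without either GFP library 67 were lower. Median rescaling alone gave 291 higher and 98 lower, while voom on recovered reads, which changes the input and the weighting too, gave 229 higher and 487 lower. Of the starvation list 6 of 29 genes were higher in DIG2 than in DIG1 and 0 lower. EXO, which fell against GFP, was among the 6. Outside that list, MGL stood at 574 and 548 RPKM in DIG2, against 274 and 312 RPKM in DIG1 (log2 difference 0.94, limma adjusted p = 0.00747). AGT3, also outside it, stood at 425 and 421 RPKM in DIG2, against 225 and 224 RPKM in DIG1 (0.91, limma adjusted p = 0.00507). In the lignin list none of 22 genes was called between the lines, and 12 fell in DIG1 against the same GFP libraries. For OMT1 the log2 difference was -0.33 ± 0.17 (limma adjusted p = 0.361), with 21.1 and 32.5 RPKM in DIG2 and 35.8 and 30.3 RPKM in DIG1, which does not show that the lines act alike.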

How the data were processed

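RNA of whole seedlings was made into stranded mRNA libraries and sequenced on an Illumina HiSeq, per the labels' protocols. Per the submitters' processing notes the tools were HTSeq 0.5.4 and edgeR 3.6.2 with build TAIR10; for the aligner, the sources used here give no name. The authors deposited RPKM for each library, together with log2 fold changes and FDR-adjusted p-values against GFP for genes kept by a filter of 2 CPM in 2 libraries, a filter that 17344 of 17371 genes were found to pass. All genes gave whole reads from the deposited RPKM steps within 0.001 of a read; these reads were used for depth and for an alternative with voom. The first deposited column held gene IDs beside the RPKM of GFP replicate 1 and was split.

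From these values, log2(RPKM + 0.5) of the 6 libraries of the 4 h table was fitted with limma 3.58.1 (R 4.3.3) with a variance trend, without a block, and p-values were adjusted over all genes. The fit was run on simulated data with known changes and independent normal noise at its own variances. Such data cannot show how the fit handles differences between these libraries. RefSeq TAIR10.1 matched 17305 genes, 7867 with a symbol. Named genes were the 12 largest called changes in each direction with a symbol, a mean of at least 1 RPKM and libraries that do not overlap, up to 4 called members of each list, the 5 largest differences from DIG1 in each direction, the 3 highest levels among 2-fold changes in each direction, the relatives of DIG2, and other list members given as values. The members and lists were chosen with earlier results of these data known. The light-grown libraries were not used here. Other pseudocounts, filters, scalings, fits and left-out libraries were tried.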

Additional observations from a re-analysis of the deposited data

Results flagged for a closer look

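Among the named genes, 41 besides the 2 DIG genes themselves differed in the direct contrast of DIG2 with DIG1 by limma over all genes, with adjusted p from 8.12e-05 to 0.0478. Of these, 12 held under every alternative run and 29 lost the call under at least 1, most often when a DIG1 library was left out (26 without DIG1 replicate 1 and 24 without DIG1 replicate 2).

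NRT2.6 differed most, at 10.5 and 7.70 RPKM in DIG2 against 0.803 and 0.584 RPKM in DIG1 (log2 difference 3.00). NRT1.8 differed by 1.23 and AMT1;1 by 0.56. BBX23 (bbx23 in the annotation), a B-box factor of light signalling, stood at 6.57 and 7.48 RPKM in DIG2 against 0.755 and 1.03 RPKM in DIG1 (2.44), and both lines lay below GFP. BBX17 differed by 2.0 and PORA by 1.42, and these too lay below GFP in both lines.

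Higher in DIG2 than in DIG1 were also AT5G38710, the second proline dehydrogenase, by 1.56, MGL by 0.94, BCAT-2 by 0.93, AGT3 by 0.91, TAT7 by 0.81, DIN2 by 0.80 and ERD5 by 0.59. So were GH3.1 at 1.52, PGAZAT at 1.53, XTH15 at 1.33, JAZ4 at 1.23, IAA20 at 1.20, XTH19 at 1.08, EXO at 1.04, XTH31 at 0.70 and SAUR22 at 0.64. MYB122 (1.05) and CBSX5 (0.55) complete the genes higher in DIG2. A level above DIG1 is not always a rise against GFP: EXO fell against GFP.

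Lower in DIG2 than in DIG1 were UMAMIT25 (-1.82), EXPA2 (-1.47), ELIP2 (-1.35), the defence gene PR1 (-1.35), GSTF6 (-1.28), KIN2 (-1.05), CCA1 (-0.98), NAC102 (-0.78), LHY (-0.73), APR2 (-0.70), AT1G44000 (-0.68), LUT2 (-0.65), EDS1 (-0.64), OHP (-0.58), ASN2 (-0.51), HEMA1 (-0.42) and UPM1 (-0.39). UMAMIT25, of an amino acid exporter family, stood at 0.740 and 1.11 RPKM in DIG2, against 5.45 and 3.70 RPKM in DIG1. PR1 lay above GFP in both lines, where GFP held only 3 and 7 recovered reads of it. No explanation of these differences was tested. The genes whose difference held under every alternative were NRT2.6, BBX23, BBX17, PORA, IAA20, XTH19, EXO, MGL, AGT3, ELIP2, AT1G44000 and UMAMIT25.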

How the results depend on the processing

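The counts of called genes depended most on single GFP and DIG2 libraries and on the variance trend. Leaving out 1 library at a time gave 406 to 1311 genes higher and 509 to 1338 lower in DIG2, against 1281 and 1300 in all. The number higher was 762 without the variance trend, with 933 lower. The lowest counts came without GFP replicate 2. Without a DIG1 library slightly more genes were called, as with the 4 DIG2 and GFP libraries alone (1305 and 1337). At least 2-fold, the same omissions gave 77 to 154 higher and 227 to 363 lower. Of 226 named calls, 117 held under every alternative and 109 were lost under at least 1. Of these, 90 were lost without GFP replicate 2, 89 without DIG2 replicate 1, 76 without GFP replicate 1 and 38 without DIG2 replicate 2. No named gene changed direction.

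With the replicate number as a block, 1384 genes were higher and 1399 lower in DIG2, and only STP1, SWEET2 and LOG5 of the named calls against GFP, and MYB122 against DIG1, were lost. Deviations of same-numbered DIG2 and GFP libraries correlated at 0.162, those of DIG2 and DIG1 at -0.0118. With 2 numbers that nothing in the labels ties to a batch, the libraries share only a number. Median rescaling gave 1372 higher and 1168 lower, and voom on recovered reads, which changes the input and the weighting too, 1174 and 1680; the cause was not tested. Against DIG1, leaving out 1 library gave 88 to 207 genes higher in DIG2 and 20 to 87 lower, and the fit without the trend 111 and 38. Extending the promoter window to 500 bases, an alternative chosen after seeing the data as were the counts at 2-fold and of element genes, gave the stress element in 5.65% of genes that fell, beside 4.80% at 250 bases. The longer window also gave more over all genes with a promoter, 1.18% beside 0.9%, and among genes that rose, 0.39% beside 0.23%. Depth limits the lowest levels most: NRT2.6 in GFP rests on 15 and 6 reads, and RD20 in DIG2 on 6 and 7.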

Other observations

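Jasmonate genes rose more often than they fell, with 5 of 24 measured members higher and 1 lower in DIG2. Of all genes 7.37% rose and 7.48% fell. The repressor genes JAZ7 and JAZ6 rose by 1.40 and 0.82 on the log2 scale, while JAZ1 stood at 7.04 and 7.74 RPKM in DIG2, against 15.4 and 22.5 RPKM in GFP (-1.28, limma adjusted p = 0.00156). In flavonoid synthesis 5 of 12 genes fell and 2 rose. UGT78D1, a flavonol glycosyltransferase gene, fell by 1.70, and MYBL2, a repressor of anthocyanin synthesis, stood at 78.8 and 67.0 RPKM in DIG2, against 37.9 and 34.0 RPKM in GFP (1.01, limma adjusted p = 0.000395). The flavonoid falls became 2 without either GFP library and 1 without DIG2 replicate 1, and the jasmonate rises 3 without GFP replicate 1 or DIG2 replicate 1.

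Sulfur assimilation had 3 of 19 genes lower and none higher, beside 7.48% and 7.37% of all genes. SIR, the sulfite reductase, stood at 42.6 and 50.5 RPKM in DIG2, against 101 and 98.5 RPKM in GFP (-1.10, limma adjusted p = 0.000251), and APR2, the sulfate-reducing enzyme before it, fell by 0.99. Of 14 measured genes of proline and raffinose-family sugars 5 rose and 2 fell, with fewer rises left without a GFP library or DIG2 replicate 1. Among the falls, the proline synthesis gene P5CS1 stood at 4.38 and 5.64 RPKM in DIG2, against 12.3 and 16.3 RPKM in GFP (-1.42, limma adjusted p = 0.00103). PAP10, an acid phosphatase of phosphate shortage, fell by 1.52, in a phosphate list with 2 of 18 higher and 2 lower. EDF3, an ethylene response factor, fell by 1.39, in an ethylene list with 2 of 26 higher and 4 lower. The phosphate rises became 0 without the variance trend or with voom on recovered reads, and the ethylene rises 0 without the trend. Among glutathione transferases 6 of 25 fell and 3 rose, with GSTF6 at -1.49 and GSTF3 at 1.31.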
